A study of Mus musculus with 2 samples.

Results

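Lipid-associated macrophages are macrophages of fat that take up lipid from adipocytes and handle it in their lysosomes, and they gather around large or dying adipocytes in obesity. Their programme centres on Trem2, a surface receptor for lipids that signals through the adaptor Tyrobp, and includes lysosomal proteins, other surface receptors and secreted proteins. In brown fat, macrophages of this kind have been described in tissue under metabolic stress.

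The 9 genes described here (Trem2, Gpnmb, Cd9, Lgals3, Cd68, Atp6v0d2, Mmp12, Clec7a and Ctss) were named for this programme and taken by gene identifier from the 628 genes with deposited values. All 9 were found. They were chosen by their 3bKO over fl/fl ratios in these libraries as well as by name, so that the ratios are given as a description and no test was made of them. The samples were brown adipose tissue of C57BL/6 mice, sequenced as 2 RNA libraries, 1 labelled fl/fl and 1 labelled 3bKO, both on a 60% fat diet for 20 weeks. The labels do not give the sex, the age, the number of animals behind a library or the Cre line. In the study's methods, fl/fl mice carry a Dnmt3b gene (for a de novo DNA methyltransferase) with loxP sites around catalytic exons, and the knockout adds a Cre driven by the Ucp1 promoter, a promoter of brown and beige adipocytes. The RNA-seq described there, however, was of mice on chow, and the name of the deposited table pairs D3b with Myf5, another Cre driver of the brown fat and muscle lineage, so that the origin of the 3bKO library is uncertain. Groups were read from the column headings alone.

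Values are FPKM, a fragment count corrected for transcript length and library size, which can be compared between genes. Depth is unknown. A single library stands for each genotype, so that replicate error, p-values and intervals could not be had. The table is a selection, since no gene in it has an absolute log2 ratio under 0.50, so that a gene without a value cannot be called unchanged. Of the 628 genes, 81.5% were higher in 3bKO. The median log2 ratio of 3bKO over fl/fl was 0.96. Setting both libraries to the same median over the listed genes lowered every log2 ratio by 1.05, and ratios are also given against this shift. In whole tissue, more macrophages and more RNA of these genes per macrophage cannot be told apart. Values of the brown adipocyte list were present and lower in 3bKO in 5 of 12 members, among them Dio2, the deiodinase that activates thyroid hormone, at 48.0 FPKM for fl/fl against 20.6 FPKM for 3bKO. Ucp1 has no value among the genes analysed here.

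All 9 genes had a higher value in the 3bKO library. Of them, 8 were more than 2-fold higher, beside 47.1% of all 628 genes, and 3 were more than 3-fold higher, beside 27.9%. At a threshold of 1.5-fold all 9 were counted, beside 74.5%, and at 4-fold only Clec7a, beside 23.6%. Their median log2 ratio was 1.30, and their summed level was 95.5 FPKM for fl/fl against 228 FPKM for 3bKO, a ratio of 2.39. Against the shift of the whole table, the median log2 ratio of the 9 genes was 0.25, 1 of them stayed more than 2-fold higher, and Cd9 and Mmp12 were lower in 3bKO, at log2 ratios of -0.05 and -0.12. After this shift the 2-fold cut falls close to 4-fold in the unshifted ratios, past which were 23.6% of all listed genes. The plot of levels by gene shows the distance between the libraries for each gene.

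**Figure D1:**
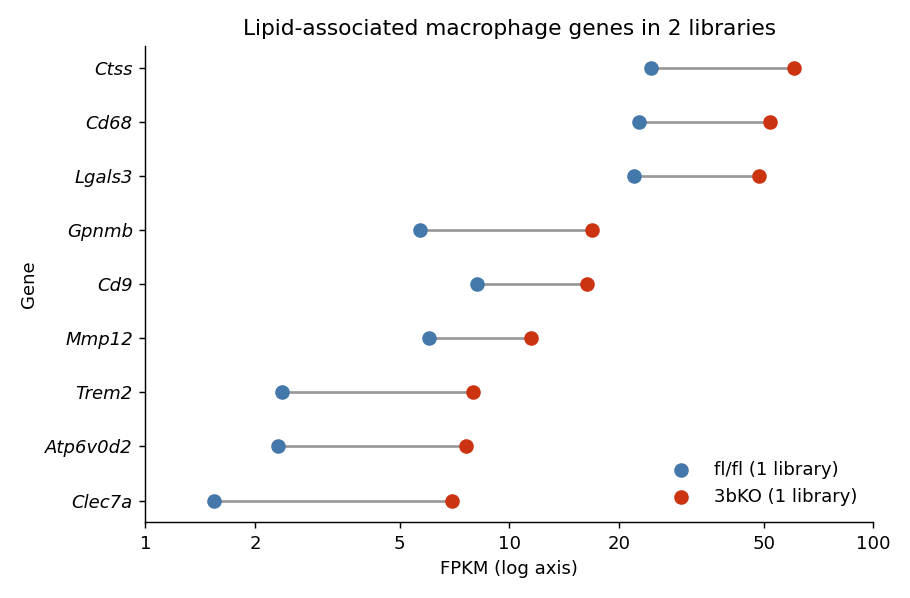
FPKM (log axis) of the 9 genes in the fl/fl library (blue) and the 3bKO library (red), ordered by the 3bKO level, with a line joining the values of each gene. Each 3bKO point lies to the right of its fl/fl point, with the widest gap for Clec7a (1.54 and 6.97 FPKM) and the narrowest for Mmp12 (6.03 and 11.5 FPKM).

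The surface receptors were among the lowest genes in fl/fl and had the highest ratios. Clec7a (gene ID 56644, chromosome 6, 129461591 to 129472785 in GRCm38.p6) encodes dectin-1, a C-type lectin that binds fungal beta-glucan. Its level was 1.54 FPKM for fl/fl against 6.97 FPKM for 3bKO, 4.53-fold higher at a log2 ratio of 2.18, which was the highest of the 9 genes. Even so, 22.9% of all genes in the table had a higher ratio than Clec7a. Trem2 (gene ID 83433, chromosome 17, 48346401 to 48352276) was 2.37 FPKM for fl/fl against 7.95 FPKM for 3bKO, 3.35-fold higher. Both receptors thus stayed below 8 FPKM in 3bKO.

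The lysosomal genes formed a low and a high group by level. Atp6v0d2 (gene ID 242341, chromosome 4, 19876838 to 19922566) encodes a form of the d subunit of the vacuolar proton pump, which acidifies lysosomes, and is best known from osteoclasts and macrophages. It was 2.32 FPKM for fl/fl against 7.60 FPKM for 3bKO, a fold of 3.28 that lies next to that of Trem2. Gpnmb (gene ID 93695, chromosome 6, 49036518 to 49058182), a membrane glycoprotein of lysosomes and melanosomes, was 5.67 FPKM for fl/fl against 16.9 FPKM for 3bKO, 2.97-fold higher and so just outside the 3-fold threshold. Ctss (gene ID 13040, chromosome 3, 95526786 to 95556405) encodes cathepsin S, the protease that degrades the invariant chain of MHC class II. It was the most abundant of the 9 genes in both libraries, at 24.6 FPKM for fl/fl against 60.6 FPKM for 3bKO, 2.46-fold higher. Cd68 (gene ID 12514, chromosome 11, 69664213 to 69666170), a heavily glycosylated protein of the endosomes and lysosomes of macrophages, was 22.8 FPKM for fl/fl against 51.9 FPKM for 3bKO, 2.28-fold higher. Both abundant lysosomal genes therefore had smaller ratios than Atp6v0d2 and Gpnmb.

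The remaining genes encode secreted or broadly expressed proteins, and had the smallest ratios. Lgals3 (gene ID 16854, chromosome 14, 47373860 to 47386167), which encodes galectin-3, a lectin that binds beta-galactosides, was 22.0 FPKM for fl/fl against 48.5 FPKM for 3bKO, 2.20-fold higher. Cd9 (gene ID 12527, chromosome 6, 125460266 to 125494760), a tetraspanin of many cell types including platelets, was 8.17 FPKM for fl/fl against 16.4 FPKM for 3bKO. At 2.01-fold it lay just inside the 2-fold threshold. Mmp12 (gene ID 17381, chromosome 9, 7344397 to 7360461), the macrophage elastase, was 6.03 FPKM for fl/fl against 11.5 FPKM for 3bKO, 1.90-fold higher and the only one of the 9 genes outside it. With 0.1 or 1 FPKM added to both libraries Cd9 was outside as well, which left 7 genes.

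Ctss, Cd68 and Lgals3 together made up most of the summed level. They held 25.7%, 23.8% and 23.1% of it in fl/fl and 26.5%, 22.7% and 21.2% in 3bKO. The largest differences in FPKM were those of the same genes, at 36 for Ctss, 29.1 for Cd68 and 26.4 for Lgals3, beside 5.28 to 11.2 for the other 6. By ratio, Clec7a, Trem2, Atp6v0d2 and Gpnmb stood above all of them. These 4 genes were also the 4 lowest in fl/fl. Mmp12, the next lowest in fl/fl, had the lowest ratio of the 9. The table as a whole was compared by level. Among genes higher in 3bKO, the median log2 ratio was 1.23 where the higher library held from 4 to 8 FPKM, the range of Clec7a, Trem2 and Atp6v0d2, and 1.004 from 8 to 20 FPKM, the range of Gpnmb, Cd9 and Mmp12. It was 0.87 from 20 to 60 FPKM, the range of Cd68 and Lgals3, and 1.03 from 60 FPKM upward, the range of Ctss, so that it was not lower at each higher level. The smallest absolute log2 ratio listed was 0.50 or 0.51 in each of these 4 ranges. It was larger only where the higher library held less than 4 FPKM, a range without any of the 9 genes. In the fl/fl library, however, Clec7a (1.54 FPKM), Trem2 (2.37 FPKM) and Atp6v0d2 (2.32 FPKM) were below 4 FPKM. The part of level in the order of the 9 genes was not tested.

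**Figure D2:**
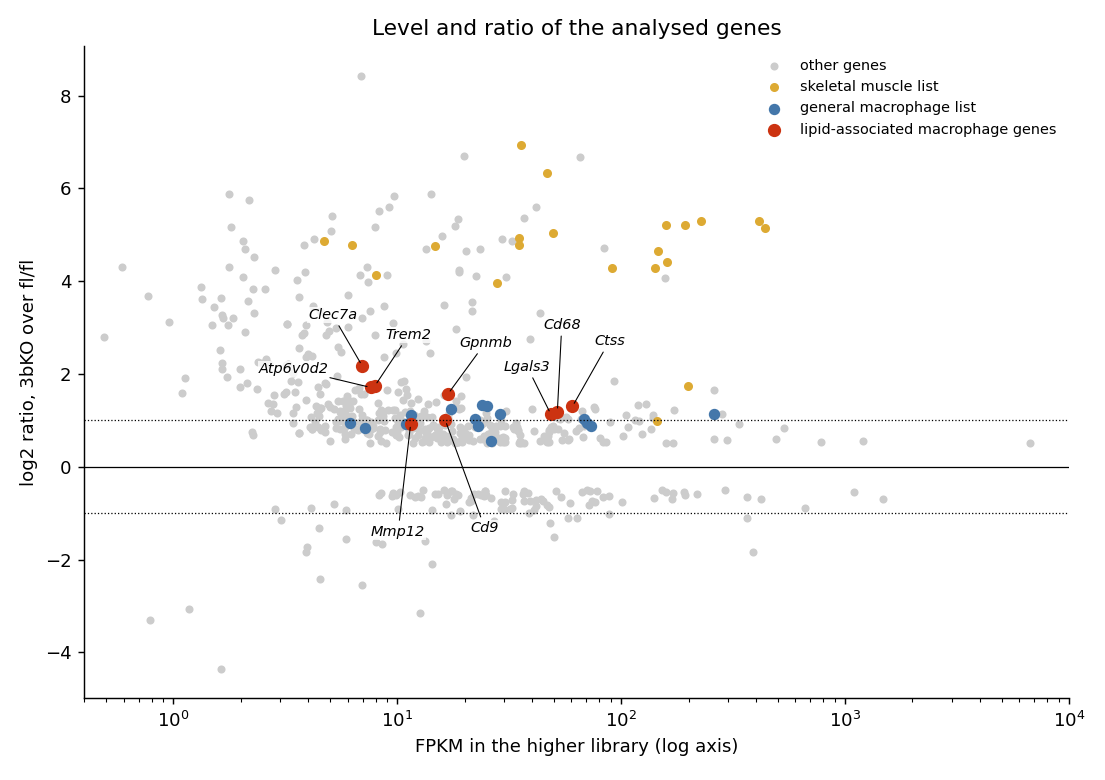
Log2 ratio of 3bKO over fl/fl against the FPKM of the higher library (log axis) for the listed genes, leaving out 23 genes at the floor of 0.01 FPKM in either library. Dotted lines mark 2-fold, and the 9 genes (red) lie between 0.93 and 2.18, with Clec7a, Trem2, Atp6v0d2 and Gpnmb above the general macrophage genes (blue, 0.56 to 1.34) and the other 5 within their range, while most of the skeletal muscle list (yellow) lies far above. Of all listed genes, 27.9% had a higher ratio than Gpnmb.

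General macrophage genes were higher in the same library. Of 26 genes on this list, 15 had values, each of them higher in 3bKO, as were 81.5% of all listed genes. Past the 2-fold threshold were 8 (53.3% of the 15, beside 47.1% of all listed genes). The 15 had a median log2 ratio of 1.02 and a range from 0.56 to 1.34. Lyz2, a lysozyme of myeloid cells close enough in sequence to Lyz1 for reads to be shared, was 118 FPKM for fl/fl against 259 FPKM for 3bKO. C1qa, a chain of complement C1q made by macrophages, was 33.5 FPKM and 68.6 FPKM. The median of the 9 genes lay 0.28 above that of the general list on the log2 scale, a difference that no scaling of the libraries can alter. Clec7a, Trem2, Atp6v0d2 and Gpnmb had ratios above the highest of the general list, and Cd9 and Mmp12 lay below its median by 0.02 and 0.09. Since the 9 genes were chosen with their ratios known and the 15 are those that passed the selection of the table, this difference was not tested.

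The genes were also set against the summed level of the 15 general macrophage genes that passed the selection of the table. This sum was 327 FPKM for fl/fl against 674 FPKM for 3bKO, of which Lyz2 gave 118 FPKM and 259 FPKM. Dividing each library by its own sum lowered every ratio by the same factor of 2.06. The order of the genes by ratio could not change, so that these values are no further evidence of a split. Per 1000 FPKM of that sum, Clec7a was 4.71 in fl/fl and 10.3 in 3bKO, and Trem2 was 7.25 and 11.8. Atp6v0d2 was 7.10 and 11.3 on this scale, and Gpnmb was 17.3 and 25.0. Cd68 moved less, from 69.6 in fl/fl to 77.0 in 3bKO, and so did Lgals3, from 67.4 to 71.9. Cd9, at 25.0 and 24.3, and Mmp12, at 18.5 and 17.0, were slightly lower in 3bKO on this scale. Ctss stood between the groups, at 75.2 and 89.9.

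Resident macrophage genes had smaller ratios. Of 14, 5 were analysed, with log2 ratios from 0.70 to 0.97. All 5 were higher in 3bKO, beside 81.5% of all listed genes, and 0 were past 2-fold, beside 47.1%. They included Mrc1, the mannose receptor, at 10.5 FPKM for fl/fl against 19.0 FPKM for 3bKO, and Cd163, a scavenger receptor for haemoglobin, at 2.58 FPKM and 4.74 FPKM. Of the 9 genes, 8 had a ratio above that of Maf, a transcription factor of resident macrophages. Maf had the highest ratio of these 5 genes, at 5.17 FPKM for fl/fl against 10.1 FPKM for 3bKO. The 8 general macrophage genes past 2-fold were above Maf as well. Of all listed genes, 46.7% had a higher ratio than Cd9, the member just above Maf, and 52.4% a higher ratio than Mmp12, the member below Maf. The 9 genes were chosen with their ratios known, and only 5 of 14 resident genes passed the selection of the table. The difference between these lists was therefore not tested.

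Partners of the 9 genes were listed in part. Of 12 genes for signalling below Trem2, Clec7a and Fc receptors, 3 were analysed, all higher in 3bKO, as were 81.5% of all listed genes. Tyrobp, the adaptor of Trem2, was 16.8 FPKM for fl/fl against 39.95 FPKM for 3bKO, 2.38-fold higher. Fcer1g, the related gamma chain of Fc receptors, was 13.4 FPKM and 30.7 FPKM. Syk, the kinase that both adaptors and dectin-1 recruit, was 2.75 FPKM and 5.35 FPKM, below 2-fold. The ratio of Trem2 was thus larger than that of its adaptor. Of 36 other genes of lipid-associated or lipid-loaded macrophages, 5 were analysed, 4 higher and 1 lower in 3bKO, beside 81.5% higher of all listed genes. Only Capg, an actin-capping protein, was more than 2-fold higher, beside 47.1% of all listed genes. It was 7.94 FPKM for fl/fl against 18.9 FPKM for 3bKO. Cd84, a receptor of the SLAM family, was 3.71 FPKM and 7.18 FPKM. Igf1, insulin-like growth factor 1, was 4.39 FPKM and 8.73 FPKM, and Axl, a receptor for the uptake of dead cells, was 9.82 FPKM and 15.95 FPKM. Apoc1, an apolipoprotein, went the other way, at 365 FPKM for fl/fl against 234 FPKM for 3bKO. Lpl, Fabp4, Plin2, Cd36, Apoe and Spp1 of this list have no value among the genes analysed.

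Of 30 lysosomal genes beside those already described, 5 were analysed. All 5 were higher in 3bKO, beside 81.5% of all listed genes, and 3 were past 2-fold, beside 47.1%. Cd74, the invariant chain that cathepsin S cleaves, was 128 FPKM for fl/fl against 282 FPKM for 3bKO, and its fold of 2.20 was below the 2.46 of Ctss. Laptm5, a lysosomal membrane protein of blood cells, was 12.9 FPKM and 28.9 FPKM. Among proteases, Ctsh was 7.97 FPKM and 16.5 FPKM, Ctsc was 11.2 FPKM and 19.8 FPKM, and Lgmn, an asparaginyl endopeptidase, was 32.8 FPKM and 47.7 FPKM, the smallest ratio of the list. Of 18 other subunits and accessory proteins of the vacuolar proton pump, 0 were among the genes analysed, so that Atp6v0d2 was the only listed one. Of 37 relatives of the 9 genes by family, only 4 were analysed, and the rest have no value. All 4 were more than 2-fold higher in 3bKO, beside 47.1% of all listed genes. The matrix metalloproteinase Mmp14 was 2.85 FPKM for fl/fl against 9.02 FPKM for 3bKO, and the gelatinase Mmp2 was 7.79 FPKM and 18.7 FPKM, so that both had larger ratios than Mmp12. The C-type lectin Clec12a, an inhibitory receptor, was 2.37 FPKM and 6.32 FPKM, and the tetraspanin Cd53 of leukocytes was 2.85 FPKM and 6.76 FPKM.

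Genes of other cell types differed between the libraries at the same time. The skeletal muscle list, analysed in all 21 of its members, had a median log2 ratio of 4.77 and made up 0.943% of the listed FPKM in fl/fl and 8.83% in 3bKO. Other muscle genes are outside this list and these shares, such as Tcap, at 3.16 FPKM for fl/fl against 83.7 FPKM for 3bKO, and Tnnc1, at 0.86 FPKM and 41.7 FPKM. Of 9 fibroblast genes, 8 were analysed, all higher in 3bKO, as were 81.5% of all listed genes. These 8 fibroblast genes had a median log2 ratio of 1.08 and a range from 0.70 to 1.29, beside the median of 1.30 of the 9 macrophage genes. Their summed level was 239 FPKM for fl/fl against 483 FPKM for 3bKO. Of 8 white adipocyte genes, 3 were analysed, 2 higher and 1 lower. Leptin (Lep), the satiety hormone of adipocytes, was 2.57-fold and Nnat 2.51-fold higher in 3bKO, within the range of the 9 genes, and adipsin (Cfd) had a log2 ratio of -1.85. The analysed brown adipocyte genes had a median log2 ratio of -0.89, and 2 red blood cell genes were lower in 3bKO. Kit, of the mast cell list, was 1.94 FPKM for fl/fl against 4.10 FPKM for 3bKO. Vwf, of the endothelial list, was 3.87 FPKM and 5.86 FPKM. The dendritic cell, osteoclast, neutrophil, lymphocyte and platelet lists had 0 members analysed. No analysed member of any list stood at the floor of 0.01 FPKM. The part of these other cell types in the ratios of the 9 genes was not tested.

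**Figure D3:**
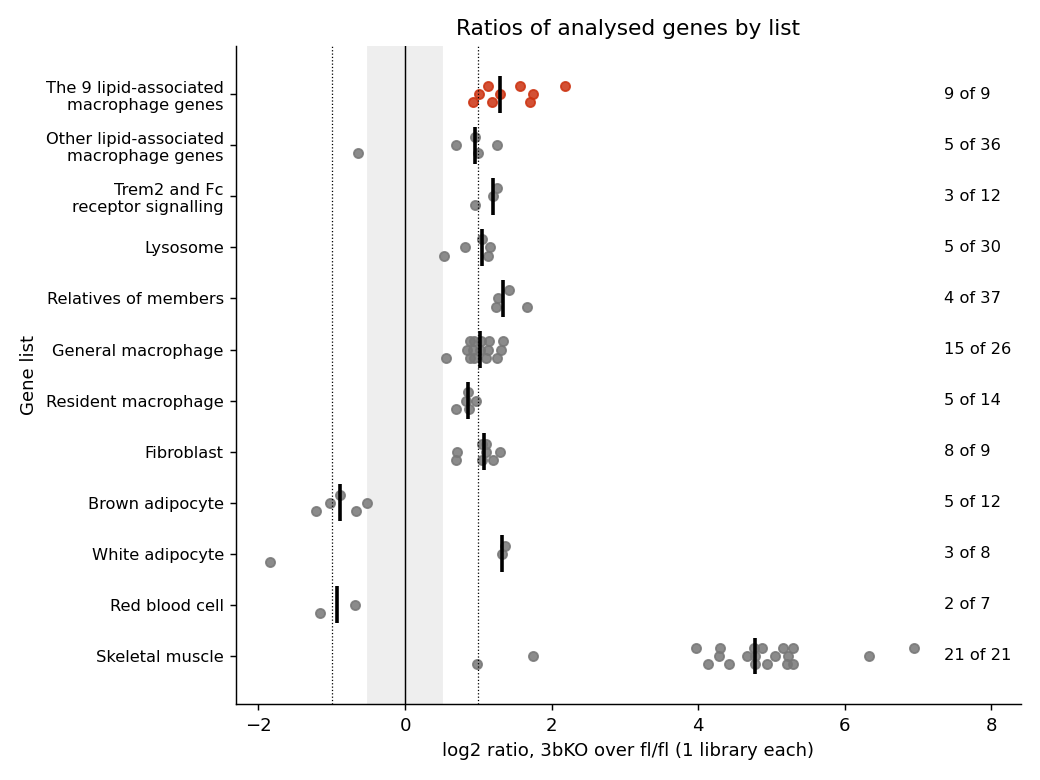
Log2 ratio of 3bKO over fl/fl for each analysed gene of the lists with 2 or more, with the median as a black bar and the number analysed of the number listed at the right. The grey band holds ratios under 0.5 in size, where the table has no gene, and dotted lines mark 2-fold. The 9 genes (red, median 1.30) overlap the general macrophage (median 1.02) and fibroblast (median 1.08) lists.

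The 5 other genes with a ratio nearest to the median of the 9 genes, where each library held 1 FPKM or more, were Nrros, Scara3, Evi2a, Mpeg1 and Dpt. Likeness was the difference in log2 ratio over the 2 libraries, which was 0.007 or less for each. Mpeg1, the perforin-2 of macrophages, was 10.2 FPKM for fl/fl against 25.1 FPKM for 3bKO. Nrros, which holds latent TGF-beta on myeloid cells, was 1.76 FPKM and 4.34 FPKM. Dpt, dermatopontin of the extracellular matrix, was 30.9 FPKM and 75.7 FPKM. Scara3, a member of a scavenger receptor family, was 1.43 FPKM and 3.52 FPKM, and Evi2a was 2.38 FPKM and 5.88 FPKM. Macrophage and matrix genes thus both stood at this ratio.

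The promoters of the 9 genes were read, as a description, from RefSeq sequences of GRCm38.p6, which is the mm10 assembly of the deposited values. Windows ran from 250 bases before to 50 after a transcription start, and 8 of the 9 genes had 1 or 2 windows, 10 in all, Atp6v0d2 having no entry. The motifs searched, on both strands, were GAGGAA (the core bound by PU.1, the master factor of macrophages), CACGTG (the E-box of the lysosomal factors TFEB and TFE3), TCATGTG (the M-box bound by MITF), TGANTCA (AP-1) and TTGCNNAA (C/EBP). N stands for any base, so that TGANTCA takes in sites with different centre bases. None of these motifs contains another. The sequences shown are the last 170 bases before the start, 5′ to 3′ on the strand of the gene, for the 5 genes with a GAGGAA match and for Gpnmb, which had none upstream. Capitals mark every motif match on either strand, so that GAGGAA on the other strand reads TTCCTC.
Trem2, chr17:48346231-48346400, plus strand: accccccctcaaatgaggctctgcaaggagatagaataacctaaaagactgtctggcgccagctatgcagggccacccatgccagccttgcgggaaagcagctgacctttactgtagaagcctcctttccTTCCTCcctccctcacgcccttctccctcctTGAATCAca
Clec7a, chr6:129472780-129472949, minus strand: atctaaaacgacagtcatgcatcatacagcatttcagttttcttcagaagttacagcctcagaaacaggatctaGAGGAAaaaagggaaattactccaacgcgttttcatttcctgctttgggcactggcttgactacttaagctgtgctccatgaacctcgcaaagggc
Cd68, chr11:69666171-69666340, minus strand: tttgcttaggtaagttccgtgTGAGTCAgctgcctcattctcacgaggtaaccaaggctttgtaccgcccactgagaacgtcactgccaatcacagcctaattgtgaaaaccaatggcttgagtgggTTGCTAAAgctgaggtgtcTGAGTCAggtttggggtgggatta
Ctss, chr3:95526616-95526785, plus strand: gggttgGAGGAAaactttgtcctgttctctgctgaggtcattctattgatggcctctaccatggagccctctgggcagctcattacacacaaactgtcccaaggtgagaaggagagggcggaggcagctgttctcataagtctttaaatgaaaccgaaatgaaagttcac
Mmp12, chr9:7344227-7344396, plus strand: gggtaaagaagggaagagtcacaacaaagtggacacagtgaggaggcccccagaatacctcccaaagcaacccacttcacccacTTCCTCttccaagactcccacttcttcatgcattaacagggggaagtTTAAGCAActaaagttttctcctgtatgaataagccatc
Gpnmb, chr6:49036348-49036517, plus strand: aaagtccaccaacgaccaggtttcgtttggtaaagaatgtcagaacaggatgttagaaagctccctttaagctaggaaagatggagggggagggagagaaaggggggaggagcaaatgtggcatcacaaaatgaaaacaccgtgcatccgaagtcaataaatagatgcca

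A GAGGAA match was found in 6 of 10 windows, those of Trem2, Clec7a (2 overlapping windows that share the match), Cd68, Ctss and the more upstream start of Mmp12, and 28.3% of 32851 promoter windows in the reference hold one. In Trem2 it began 40 bases before the start on the opposite strand, and in Clec7a 96 bases before the start shown. In Ctss it began at 164 bases before the start, and again, on the opposite strand, at base 1 of the transcript. In Cd68 it lay at 225 bases before the start, outside the stretch shown, and again 30 bases after it. TGANTCA was found in 4 windows, those of Trem2, Cd68, Gpnmb and the downstream start of Mmp12, beside 7.81% of all windows. Cd68 held it at 149 and at 24 bases before the start, and Gpnmb only at 9 bases after it. The match reads TGAATCA in Trem2 and TGAGTCA at both places in Cd68. TTGCNNAA was found in 3 windows (Trem2, Cd68 and Mmp12), beside 10.8%, and TCATGTG in 2 (Ctss and Mmp12), beside 3.77%. The match of TTGCNNAA in Trem2 lay 23 bases after the start, and that of TCATGTG in Ctss 19 bases after it. CACGTG was found in 0 of 10 windows, beside 7.15%. Cd9 and Lgals3, the windows with the highest G and C content at 61.6% and 66.0% over 250 bases, held none of these motifs. They are also widely expressed genes with ratios near 2-fold. Motifs and ratios did not run together, however. Mmp12, with the lowest ratio of the 9 genes, held matches in both of its windows, and Gpnmb, 2.97-fold higher, held none upstream of its start. These matches describe letters in the windows, and with 10 windows no comparison with the other promoters was tested.

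**Figure D4:**
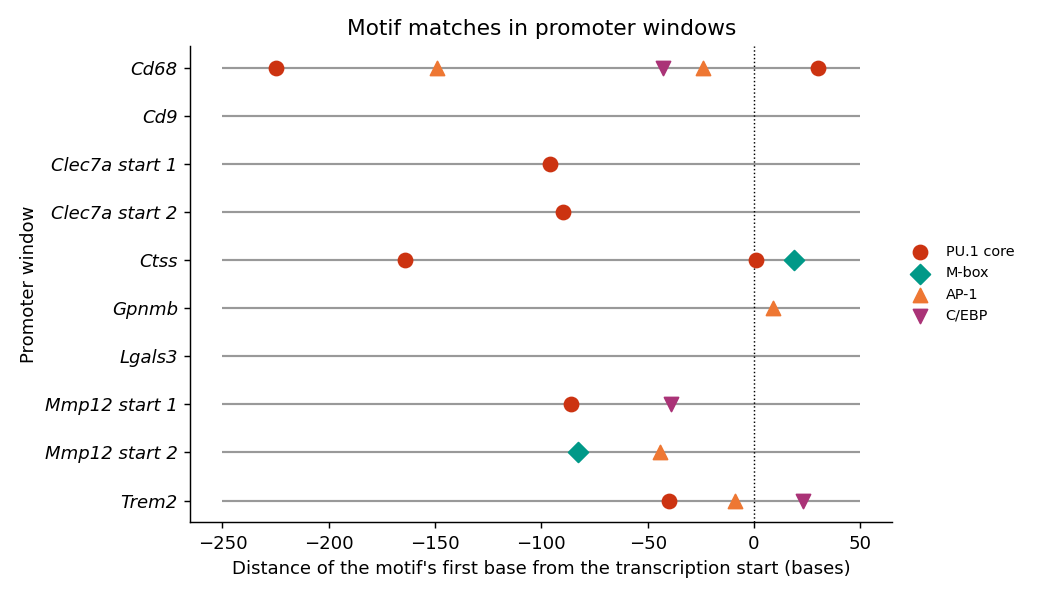
Position of motif matches in the 10 promoter windows of 8 genes, as the distance of the first base of the match from the transcription start in bases, with a symbol for each motif by the factor named in the text. Trem2 and Cd68 hold matches to the patterns searched for PU.1, AP-1 (TGANTCA, read as TGAATCA in Trem2) and C/EBP, and Cd9 and Lgals3 hold no match.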

How the data were processed

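The samples were 2 libraries of poly(A)-selected RNA from brown adipose tissue, 1 fl/fl and 1 3bKO. The deposited values are FPKM calculated by the authors, whose processing notes name RSEM and mm10 without a version. The filter that gave the 628 listed genes is not stated in those notes. Depth is unknown, since FPKM from estimated counts holds no whole reads. Entrez identifiers were paired with RefSeq symbols of GRCm38.p6, and 627 matched. Ratios are 3bKO over fl/fl without a pseudocount, and 2-fold was the threshold. With 1 library per genotype no test was run. Pseudocounts of 0.1 and 1, a minimum of 1 FPKM, scaling to a common median (with and without skeletal muscle genes) and thresholds of 1.5, 3 and 4 were tried.

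The 9 genes and the 19 other lists were chosen with earlier results of these data known. All 9 genes were named, with up to 6 analysed genes per list taken by mean FPKM (some lists only in part) and the 5 genes nearest in ratio. Calculations used Python 3.11.15, NumPy 2.4.6, pandas 2.3.3 and Matplotlib 3.10.9, and were tested on simulated data.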

Additional observations from a re-analysis of the deposited data

How the results depend on the processing

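A pseudocount cannot turn a ratio and both minimums left the 9 ratios as they were, so that these settings say nothing of the direction. With the libraries set to the same median over all listed genes, 1 of the 9 genes was more than 2-fold higher (8 before), their median log2 ratio was 0.25 and their summed ratio 1.15, and Cd9 and Mmp12 reversed to -0.048 and -0.12. Without the skeletal muscle list in that median, these values were 1, 0.32 and 1.21, and Mmp12 reversed to -0.054. Muscle genes outside that list, such as Tcap and Tnnc1, stayed in the median. Under both scalings 0 other lipid-associated, lysosomal and general macrophage genes were more than 2-fold higher, against 1, 3 and 8 before. This follows from the construction, since each scaling takes 1.05 or 0.98 from every log2 ratio, and the listed genes are a selection and no neutral reference. Under both scalings the 2-fold cut falls close to 4-fold in the unscaled ratios, past which were 23.6% of all listed genes. At 3-fold, 3 of the 9 genes were higher, beside 27.9% of all listed genes, and at 4-fold 1, beside 23.6%. The other 3 lists, with 5, 5 and 15 genes analysed, had 0 at either threshold. At 1.5-fold, 4 of 5 other lipid-associated and 14 of 15 general macrophage genes were higher, beside 74.5% of all listed genes. In the 250 upstream bases alone, TCATGTG was found in 1 window (2 before), TGANTCA in 3 (4 before) and TTGCNNAA in 2 (3 before). GAGGAA stayed at 6 windows and CACGTG at 0. The difference of medians between the 9 genes and the general macrophage genes was from 0.28 to 0.31 in every setting run for it. Only the pseudocounts could change it, because a scaling cancels between the lists and every gene of both lists passes the minimums. The 9 genes were also chosen with their ratios known, so that this narrow range is no evidence of a difference. No paired analysis was possible because there is 1 library of each genotype, which also leaves the spread between animals unknown.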
